A study of Mus musculus with 9 samples.

Results

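The cytosolic ribosomal protein genes were examined in AML12 cells, a mouse hepatocyte line derived from a mouse that carried a transforming growth factor alpha transgene. Members were all protein-coding genes of the GENCODE mouse annotation whose symbol is Rpl, Rps or Rplp followed by a digit, without the S6 kinase genes (Rps6k), Rps19bp1 and symbols with -ps. This gave 84 genes among the 21959 in the deposited tables, 52 of the large 60S subunit and 32 of the small 40S subunit. Of these, 80 had enough counts to be tested among 11562 tested genes. Free fatty acids were present in every group, and there were 9 libraries, 3 for each of 3 groups. In the OCY-EV+ANTA group, vesicles shed by aged osteocytes were mixed for 30 min with antagomir-483-5p, a modified oligonucleotide that blocks the microRNA miR-483-5p, before the cells received them. For OCY-EV+ANTA-NC cells a control antagomir (antagomir-NC) took its place, and Veh cells were given phosphate-buffered saline. Vesicles were given at 2 µg/ml. No group received vesicles without an antagomir or a control antagomir without vesicles, and nothing in the labels states that a group's libraries are separate cultures, so the p-values reflect the spread among these libraries alone, which may be technical.

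Ribosomal proteins build the 2 subunits of the ribosome around the ribosomal RNAs, and their messenger RNAs are among the most abundant in growing cells. In mammals nearly all of these messenger RNAs begin with a terminal oligopyrimidine tract, a C followed by a run of C and T letters (U in the RNA), through which their translation follows the mTOR pathway. Their transcription is spread over many separate genes, is driven by general and growth-linked factors such as Myc, Sp1 and the GABP complex, and is tuned so that subunits are made in step with ribosomal RNA. Many of the genes also carry small nucleolar RNAs in their introns and have left processed pseudogenes elsewhere in the genome.

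The members were picked because earlier results on these libraries showed them falling together in OCY-EV+ANTA-NC cells and rising together in OCY-EV+ANTA cells. The choice was read here as lower in OCY-EV+ANTA-NC than in Veh cells and higher in OCY-EV+ANTA than in OCY-EV+ANTA-NC cells. The values of those 2 comparisons are therefore given as a description. What the rise in OCY-EV+ANTA cells was measured against was not named, so the choice favoured members high in OCY-EV+ANTA libraries. Counts and medians over members in OCY-EV+ANTA against Veh cells are therefore a description as well. Tests of single genes in that comparison are given in full, with the same limit.

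Runs of C and T letters near the annotated start are shown here for members on which the results below turn, because a terminal tract of such letters is known for this gene group. Each window is 30 bases of the coding strand from the RefSeq promoter table of GRCm38.p6, the same assembly as mm10, and capitals mark the run of C and T letters within 50 bases of the annotated start. In these windows the run begins between position -22 (Rps27l) and position 41 (Rps2) relative to that start, so that it is near the start but not shown to be the terminal tract of the messenger RNA.
Rpl12, chr2:32961732-32961761, plus strand: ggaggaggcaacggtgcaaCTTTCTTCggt
Rpl28, chr7:4792952-4792981, plus strand: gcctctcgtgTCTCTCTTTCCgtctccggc
Rpl18, chr7:45718062-45718091, plus strand: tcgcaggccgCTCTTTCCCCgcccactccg
Rpl4, chr9:64173403-64173432, plus strand: aggagcgtggCCTTCTCCTCTCCCCgtcat
Rpl14, chr9:120571499-120571528, plus strand: gcagggcgggCCCTCTCTCTTCTCgctgag
Rps2, chr17:24720083-24720112, plus strand: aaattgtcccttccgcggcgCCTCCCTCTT
Rpl39, chrX:37085173-37085202, minus strand: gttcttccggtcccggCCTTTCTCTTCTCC
Rps6, chr4:86857349-86857378, minus strand: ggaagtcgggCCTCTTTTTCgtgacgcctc
Rps27, chr3:90213631-90213660, minus strand: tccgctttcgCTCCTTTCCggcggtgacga
Rps27l, chr9:66946054-66946083, plus strand: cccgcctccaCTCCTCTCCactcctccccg

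Among the 84 members, 64 had a promoter in that table, and in 51 of the 60 tested members with one (85.0%) a run of at least 8 C or T letters lay within 50 bases of an annotated start. Of 9121 tested genes with a promoter, 3344 (36.7%) held such a run. The letters CTCTTT, a core of several of the runs shown, were found on the coding strand of the same window in 19 members (31.7%), against 351 of all tested genes (3.85%), and CTTTCC in 19 members (31.7%), against 468 (5.13%). The letters CCGGAAG, the core bound by GABP and other ETS factors, were found on either strand of the 300 bases in 24 of the 60 members and in 21.3% of all tested genes. The Sp1 core GGGCGG, searched on both strands, was present in 37 members (61.7%) and in 69.4% of all tested genes. CTCTTT and CTTTCC can share letters within a run, and a match is a stretch of letters, not a bound site.

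Total counts ran from 17298814 to 21737643 per library. The hepatocyte factor Hnf4a stood at 48.3 to 67.1 CPM, while albumin (Alb) was at 1.71 to 7.28 CPM and the bile duct keratin Krt19 at 2357 to 2839 CPM. CPM of the markers in this paragraph is the count scaled to the plain library total. For members and other listed genes below, CPM is scaled to the library total times edgeR's TMM factor. Of 6 osteocyte markers, 2 (Sost and Dmp1) had 0 counts in every library, and 0 of the 6 had enough counts to be tested. The 6 summed to 0.171 to 0.268 CPM in OCY-EV+ANTA, 0.108 to 0.66 CPM in OCY-EV+ANTA-NC and 0 to 0.414 CPM in Veh libraries. The summed level of the 9 hepatocyte markers, 6 of them tested, was 64.1 to 74.6 CPM in OCY-EV+ANTA cells, 78.0 to 84.1 CPM in OCY-EV+ANTA-NC cells and 73.6 to 77.3 CPM in Veh cells. In OCY-EV+ANTA cells 3 of these 6 were called lower against OCY-EV+ANTA-NC cells and 1 against Veh cells, and none of the 9 was at 0 in all libraries. The 5 bile duct markers summed to 3884 to 4186 CPM in OCY-EV+ANTA cells, 3666 to 3826 CPM in OCY-EV+ANTA-NC cells and 3895 to 3949 CPM in Veh cells. For the bile duct list the Veh sums lay inside the OCY-EV+ANTA range and the OCY-EV+ANTA-NC sums lay below both. For the hepatocyte list the OCY-EV+ANTA and Veh sums overlapped and the OCY-EV+ANTA-NC sums lay above both. The part of either list in the differences described here was not tested.

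The members covered a wide range of levels. Measured per length as FPKM (the count divided by gene length and library total), the mean over the 9 libraries ran from 0.522 to 1729 FPKM, with a median of 308 FPKM. The gene length used can be far above the coding length, as in Rps24 with 6256 and 399 bases. Rps24 therefore had 1061 CPM but 169.6 FPKM. The order by FPKM depends on this length: by mean CPM, Rplp0 (2673.8) and Rpl4 (2349.5) lay above Rps3a1 (1689.1). The 10th and 90th percentiles, 14.2 and 944.8 FPKM, differed 66.7-fold. The median was 317 FPKM over 48 tested members of the 60S subunit and 254 FPKM over 32 of the 40S subunit. Rps3a1 (40S) was highest at 1729 ± 32.1 FPKM (SD over 9 libraries). It was followed by Rplp0, the anchor of the stalk that recruits elongation factors, at 1611 ± 49.6 FPKM, by Rps15 at 1438 ± 45.7 FPKM and by the stalk protein Rplp1 at 1379 ± 51.5 FPKM. Rpl4, which lines the peptide exit tunnel, stood at 1170 ± 35.4 FPKM and Rpl8 at 1065 ± 32.8 FPKM. Rps15 and Rplp1 were neighbours whose values overlapped between libraries, while Rps3a1 and Rplp0 overlapped only at their edges, 1674 to 1770 FPKM against 1517 to 1676 FPKM.

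At the low end, 7 tested members had a mean under 10 FPKM and 13 more lay between 10 and 100 FPKM. Rpl21 stood at 0.522 ± 0.084 FPKM, the muscle-type paralog Rpl3l at 0.649 ± 0.188 FPKM, Rps10 at 1.01 ± 0.249 FPKM, Rpl34 at 3.25 FPKM and Rpl29 at 4.54 FPKM. Rpl21, Rps10, Rpl34 and Rpl29 encode standard parts of every ribosome, so a level so far under that of their neighbours is a feature of the deposited counts that sets how well these genes could be measured. The remaining 4 members fell below the filter on low counts. Rpl10l and Rpl39l, paralogs known from testis, had 0 counts in every library. Rpl24 had 2 to 3 counts in OCY-EV+ANTA libraries, 3 to 4 in OCY-EV+ANTA-NC libraries and 4 to 10 in Veh libraries, and Rpl36al had 5 to 6, 0 to 5 and 4 to 7 counts in the same groups, too few to compare.

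**Figure D1:**
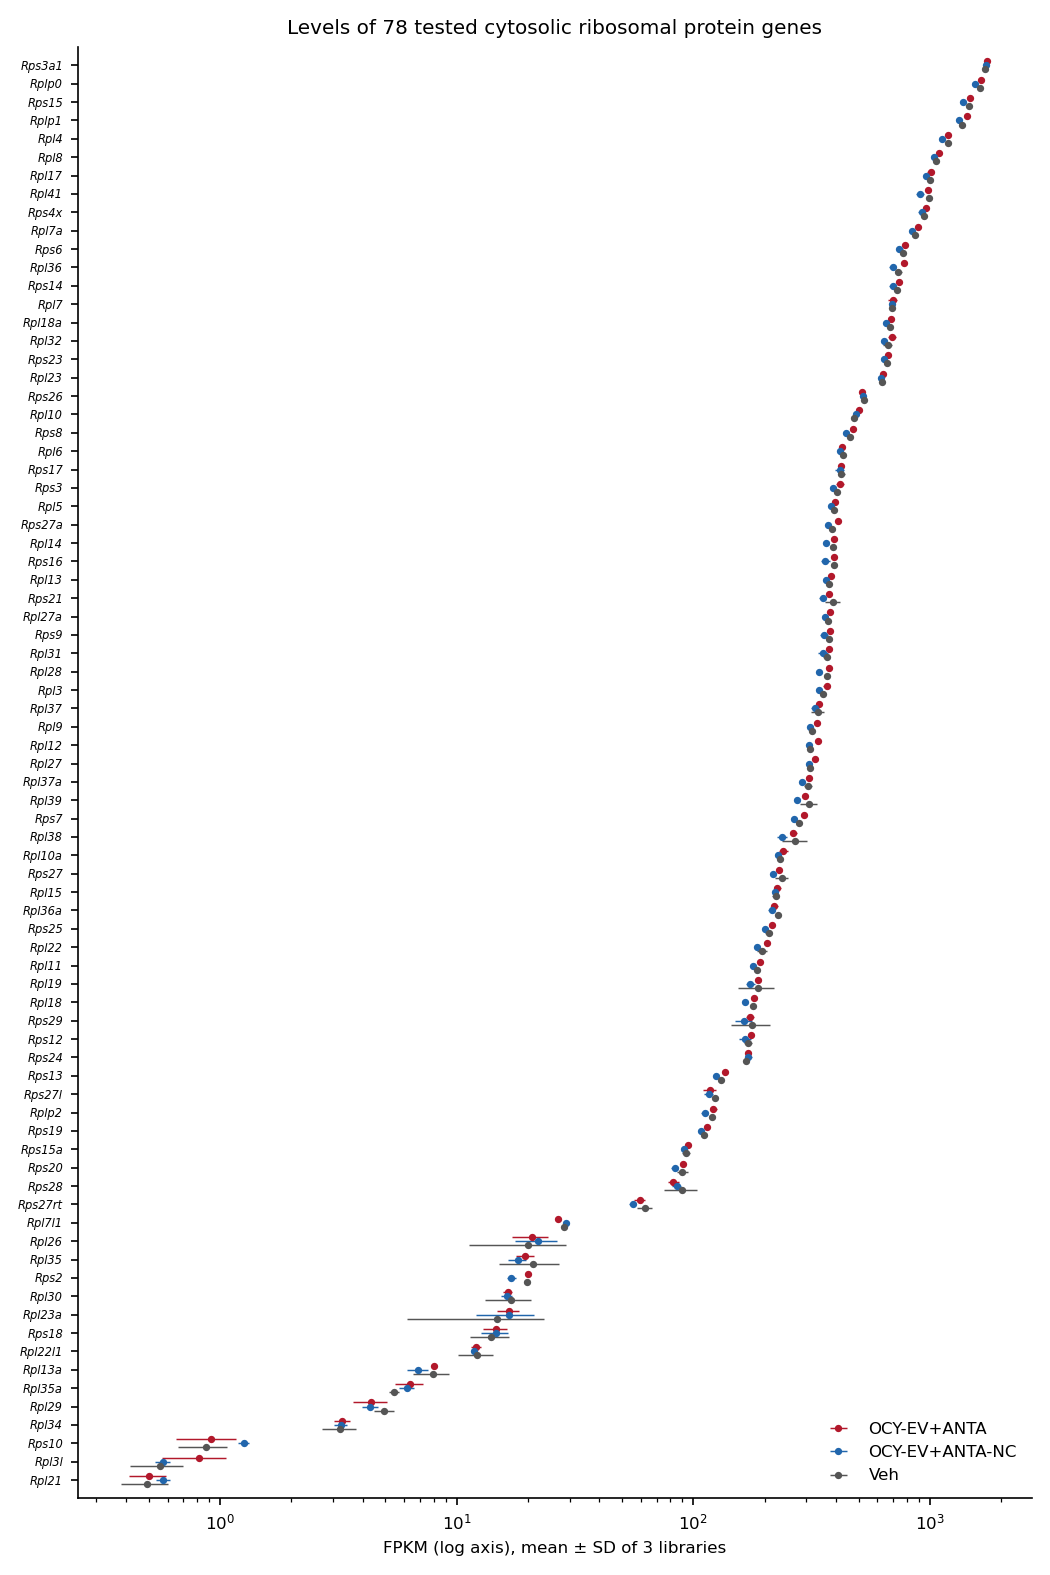
Mean FPKM (log axis) of 78 of the tested members in each group, with the SD over 3 libraries as the bar, ordered by the mean over the 9 libraries. Levels run from Rpl21 at 0.522 FPKM to Rps3a1 at 1729 FPKM, and for most members the 3 groups lie close together compared with the distance between genes.

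Many members share sequence with other genes. Of all 50-base stretches in the annotated transcripts of a tested member, a median of 64.6% occurred in no other annotated gene. This share ran from 8.9% for Rps27rt, a Rps27 copy without introns, to 100%, a value reached by Rpl3l. It was under 50% in 22 tested members and at least 90% in 8, and 78 of the 80 shared at least 1 stretch with a pseudogene. Across the 80 members the share of own stretches had a Spearman correlation of -0.20 with the mean FPKM, given as a description. Its part in the levels was not tested. Some low members overlapped another gene: 47.0% of the exon bases of Rpl24, 32.8% of Rpl13a (7.61 FPKM) and 20.6% of Rps10 lay under exons of a gene on the same strand. Opposite-strand exons covered 66.2% of Rpl35 (19.5 FPKM) and 59.7% of Rpl23a. The strand setting of the counting is not given in the sources used here, so reads of such pairs cannot be told apart. Rpl34 and Rpl21, with 89.0% and 80.3% of their stretches their own and no exon overlap, were low as well. Rpl34 shared a stretch with 9 pseudogenes and Rpl21 with 81, and what set their counts was not tested.

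Summed over the 84 members, ribosomal protein genes took 5.52, 5.51 and 5.39% of the counts in OCY-EV+ANTA libraries, 5.30, 5.16 and 5.13% in OCY-EV+ANTA-NC libraries and 5.39, 5.46 and 5.29% in Veh libraries. The group means were 5.47 ± 0.068%, 5.20 ± 0.088% and 5.38 ± 0.085% (SD, n = 3 each). The OCY-EV+ANTA and Veh libraries overlapped. Every OCY-EV+ANTA library lay above every OCY-EV+ANTA-NC library, as the choice of members would lead to. The highest OCY-EV+ANTA-NC library (5.30%) lay just above the lowest Veh library (5.29%). The 60S members took 3.41 ± 0.035, 3.23 ± 0.044 and 3.34 ± 0.044% and the 40S members 2.07 ± 0.033, 1.97 ± 0.045 and 2.03 ± 0.042% of the counts in OCY-EV+ANTA, OCY-EV+ANTA-NC and Veh cells, so both subunits had the same order of groups. In bulk samples, fewer cells and less RNA per cell cannot be told apart.

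**Figure D2:**
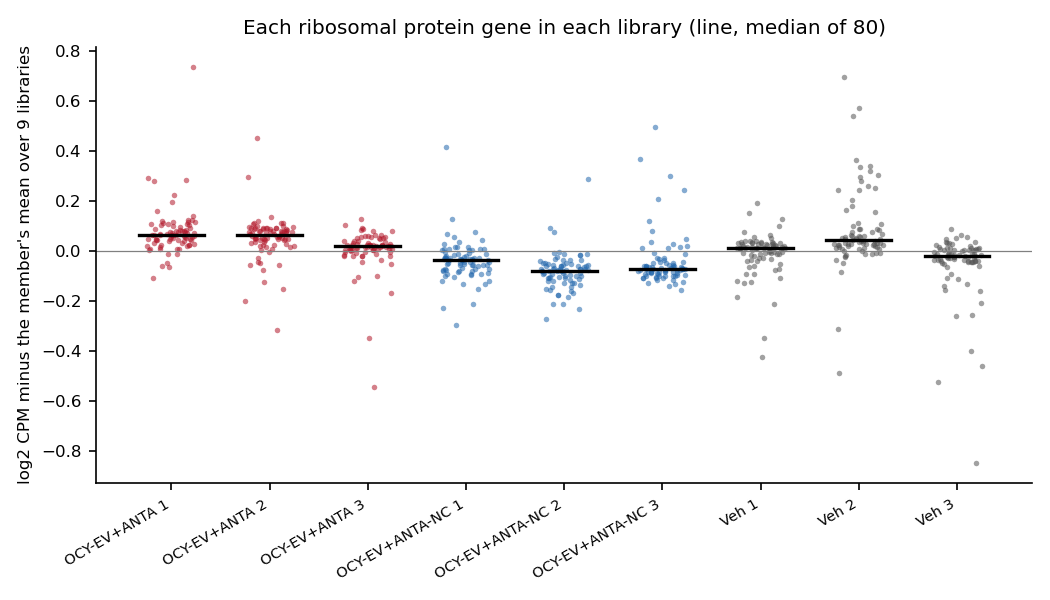
Each point is 1 of the 80 tested members in 1 library, as its log2 CPM minus its own mean over the 9 libraries, and the black line is the median of the library. The medians of OCY-EV+ANTA libraries 1 to 3 are 0.065, 0.064 and 0.019, those of OCY-EV+ANTA-NC libraries -0.035, -0.077 and -0.071, and those of Veh libraries 0.013, 0.043 and -0.020.

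The members' values in single libraries restate the differences on which they were chosen and add the spread within groups. Relative to each gene's mean over the 9 libraries, 74, 69 and 60 of the 80 members were higher in the OCY-EV+ANTA libraries, 18, 3 and 14 in the OCY-EV+ANTA-NC libraries and 47, 68 and 26 in the Veh libraries. Libraries of the same group differed as well. In Veh library 1 and OCY-EV+ANTA-NC library 3, 33 of 80 members lay above their group mean. Against the group mean, the members' median ran from -0.033 in Veh library 3, where 12 of 80 members were above their group mean, to 0.032 in Veh library 2, where 63 were. The members' median log2 fold change between OCY-EV+ANTA and Veh cells, 0.028, was smaller than that difference between libraries of the same group.

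In OCY-EV+ANTA cells against Veh cells, 2 of the 80 tested members rose and 0 fell (edgeR's quasi-likelihood test, with Benjamini-Hochberg adjustment across the 11562 tested genes and a threshold of 0.05). Over all tested genes, 3.06% were called higher and 3.46% lower. After a smooth trend on GC content and gene length was taken out, 6 of 80 members and 383 of 11562 genes were called higher. At an unadjusted p under 0.05 in edgeR's test, 11 of 80 members were higher and 0 lower, against 2404 of 11562 genes in either direction. DESeq2 called 3 members higher and 0 lower (338 and 339 of all genes), and limma on log2(FPKM + 1) called 1 higher and 0 lower (188 and 344 of all genes). The median log2 fold change of the members was 0.03 (a rise of 1.95%), against 0.00 over all tested genes, and 63 of 80 members had a value above 0, against 5784 of 11562 genes. All 3 OCY-EV+ANTA libraries lay above all 3 Veh libraries for 9 members and below them for 1, against 12.3% and 12.8% of all tested genes. Because the choice favoured members high in OCY-EV+ANTA libraries, nothing is read from these shares.

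Rpl12 sits at the base of the stalk, where elongation factors dock. It had 1231, 1219 and 1223 CPM in OCY-EV+ANTA libraries, 1126, 1086 and 1071 CPM in OCY-EV+ANTA-NC libraries and 1139, 1119 and 1115 CPM in Veh libraries. The OCY-EV+ANTA libraries stood above the other 6 with a gap, and the other groups overlapped. Its log2 fold change against Veh was 0.12 ± 0.026 (SE), with an adjusted p of 0.00581 in edgeR's quasi-likelihood test, and it passed the threshold in all 20 alternative settings that were run. Rps27a encodes ubiquitin fused to a 40S protein. It had 815, 831 and 802 CPM in OCY-EV+ANTA libraries and 784, 764 and 746 CPM in Veh libraries, which did not overlap but lay closer together than for Rpl12. Its log2 fold change was 0.09 ± 0.028 with an adjusted p of 0.0464 in the same edgeR test, and it kept its call in 9 of the 20 settings, with an adjusted p of up to 0.200 without Veh library 3.

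Rpl9 and Rpl27, both of the 60S subunit, came next by p. Rpl9 had 1047, 1070 and 1007 CPM in OCY-EV+ANTA libraries and 984, 983 and 974 CPM in Veh libraries, without overlap, and Rpl27 had 510.2, 507.9 and 503.8 CPM and 475.1, 479.2 and 480.6 CPM in the same groups. Their log2 fold changes of 0.09 ± 0.027 and 0.09 ± 0.028 missed the threshold, with adjusted p of 0.0545 and 0.0787 in edgeR's test. Rpl35a, Rpl23a and Rpl3l had higher values, 0.23, 0.14 and 0.55 on the log2 scale, with standard errors of 0.090, 0.248 and 0.307, and none passed. Without Veh library 2, Rpl23a rose by 0.75 with an adjusted p of 0.0308, and without OCY-EV+ANTA library 3, Rpl35a rose by 0.33 with an adjusted p of 0.0405 in the same edgeR test. The lowest values belonged to Rpl29 (-0.19 ± 0.156), Rpl35 (-0.12 ± 0.128), Rps28 (-0.12 ± 0.073), Rpl7l1 (-0.07 ± 0.040) and Rps27rt (-0.06 ± 0.072), and none of these passed either. The 10th and 90th percentiles of all 80 log2 fold changes were -0.04 and 0.09, and the median SE was 0.032.

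**Figure D3:**
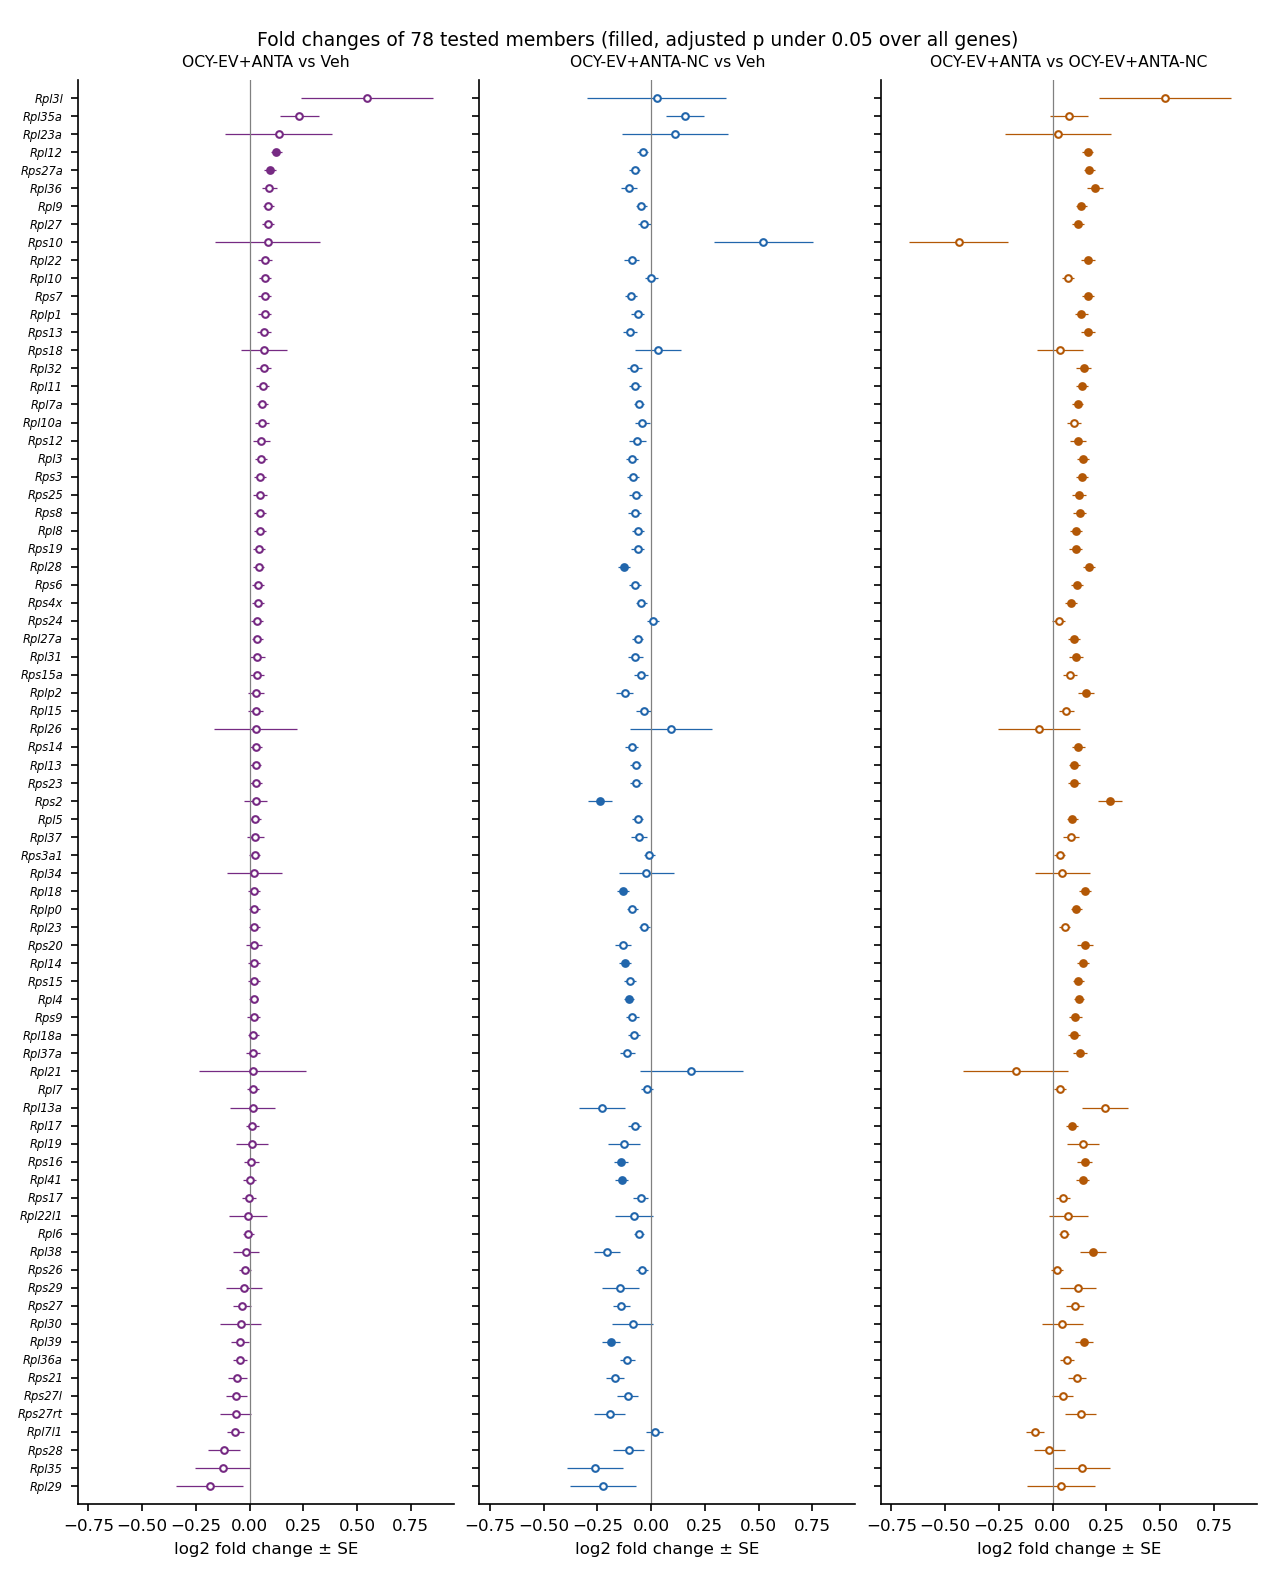
Log2 fold change with its SE for 78 of the tested members in OCY-EV+ANTA against Veh cells (left, which sets the order), OCY-EV+ANTA-NC against Veh cells (middle) and OCY-EV+ANTA against OCY-EV+ANTA-NC cells (right). Filled points have an adjusted p under 0.05 over all genes, which Rpl12 and Rps27a reached on the left. The members were chosen on the middle and right comparisons, whose libraries the left one shares, and the longest bars belong to genes with few counts.

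In OCY-EV+ANTA-NC cells against Veh cells, one of the comparisons on which the members were chosen, 69 of 80 members had a log2 fold change below 0 and the median was -0.08 (5.18% lower), against -0.005 over all tested genes. The edgeR threshold was passed by 8 members, all lower, and by 0.208% of all tested genes in that direction and 0.813% in the other. All OCY-EV+ANTA-NC libraries lay below all Veh libraries for 42 members, against 10.3% of all genes. The 8 calls fell to 0 with scaling by library size alone, with limma on log2(FPKM + 1), and without OCY-EV+ANTA-NC library 2, OCY-EV+ANTA-NC library 3 or Veh library 2. Because this comparison chose the genes, nothing is read from these shares. The 8 members were Rpl4, Rpl14, Rpl18, Rpl28, Rpl39 and Rpl41 of the 60S subunit and Rps2 and Rps16 of the 40S subunit.

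Rps2, which lies at the channel where the messenger RNA enters, had the lowest value among them. It had 29.5, 30.4 and 32.2 CPM in OCY-EV+ANTA-NC libraries and 37.0, 35.3 and 36.7 CPM in Veh libraries, a log2 fold change of -0.24 ± 0.056. The groups were well apart, but Rps2 was a low member (18.9 FPKM) with 43.6% of its stretches its own and 71 pseudogenes that shared one. Rpl4 had 2211, 2238 and 2240 CPM in OCY-EV+ANTA-NC libraries and 2389, 2396 and 2396 CPM in Veh libraries, a log2 fold change of -0.10 ± 0.022 in a gene of high level. Rpl28 had 622.9, 606.4 and 627.7 CPM in OCY-EV+ANTA-NC libraries and 676.6, 666.8 and 685.7 CPM in Veh libraries (-0.13 ± 0.027), and Rpl18 had 652, 673 and 665 CPM and 725, 728 and 723 CPM (-0.13 ± 0.028). These genes separated the groups with a narrow spread within each, as their calls in this comparison would lead to.

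Rpl39, a short protein of the exit tunnel, had 395, 385 and 391 CPM in OCY-EV+ANTA-NC libraries and 433, 485 and 414 CPM in Veh libraries, where library 2 stood high. Its log2 fold change was -0.19 ± 0.042. Rpl38, known in the mouse for translation of Hox messenger RNAs, showed the same pattern with 133.6, 122.9 and 124.7 CPM in OCY-EV+ANTA-NC libraries and 134.1, 166.6 and 138.9 CPM in Veh libraries. The lowest log2 fold changes of all, in Rpl35 (-0.26 ± 0.128), Rps2, Rpl13a (-0.23 ± 0.107), Rpl29 (-0.22 ± 0.155) and Rpl38 (-0.21 ± 0.061) belonged to genes whose 2 groups came close or overlapped, except for Rps2. At the other end stood Rps10 (0.52 ± 0.231), Rpl21 (0.19 ± 0.241), Rpl35a (0.16 ± 0.090), Rpl23a (0.11 ± 0.246) and Rpl26 (0.09 ± 0.191), all of them members with at most 21.0 FPKM.

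In OCY-EV+ANTA cells against OCY-EV+ANTA-NC cells, the other comparison behind the choice, 75 of 80 members had a value above 0, with a median of 0.11 (8.01% higher), against -0.002 over all tested genes. The threshold was passed by 45 members in the direction of a higher level and by 0 in the other, where over all tested genes 7.59% and 7.09% were called. The libraries did not overlap for 52 members with OCY-EV+ANTA higher, against 15.2% of all genes. Again nothing is read from these shares. At an unadjusted p under 0.05 in edgeR's test, 54 of 80 members were higher and 0 lower, against 3238 of 11562 genes in either direction. DESeq2 called 46 members higher and 0 lower (764 and 650 of all genes), and limma on log2(FPKM + 1) called 16 higher and 1 lower (392 and 881 of all genes). Both directions of the choice, lower in OCY-EV+ANTA-NC than in Veh cells and higher in OCY-EV+ANTA than in OCY-EV+ANTA-NC cells, held for 68 of 80 members (85.0%) and 4067 of 11562 genes (35.2%), and this count is fixed by the choice and by the OCY-EV+ANTA-NC libraries that both comparisons share.

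The highest values in this comparison were those of Rpl3l (0.52 ± 0.306), Rps2 (0.27 ± 0.056), Rpl13a (0.24 ± 0.108), Rpl36 (0.20 ± 0.037) and Rpl38 (0.19 ± 0.061). Rpl36 had 292, 310 and 303 CPM in OCY-EV+ANTA libraries and 272, 256 and 263 CPM in OCY-EV+ANTA-NC libraries, with Veh libraries in between at 274, 294 and 281 CPM. Rps2 had 35.8, 37.4 and 37.8 CPM in OCY-EV+ANTA libraries, which overlapped the Veh values given above. The members with values below 0 were Rps10 (-0.44 ± 0.231), Rpl21 (-0.17 ± 0.243), Rpl7l1 (-0.08 ± 0.040), Rpl26 (-0.06 ± 0.192) and Rps28 (-0.02 ± 0.073). Of these, Rpl7l1 had the smallest standard error, with 94.0, 95.2 and 95.1 CPM in OCY-EV+ANTA libraries, against 98.7, 103.4 and 99.0 CPM in OCY-EV+ANTA-NC libraries and 97.8, 101.3 and 98.4 CPM in Veh libraries. OCY-EV+ANTA libraries were the 3 lowest of the 9 for this gene.

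**Figure D4:**
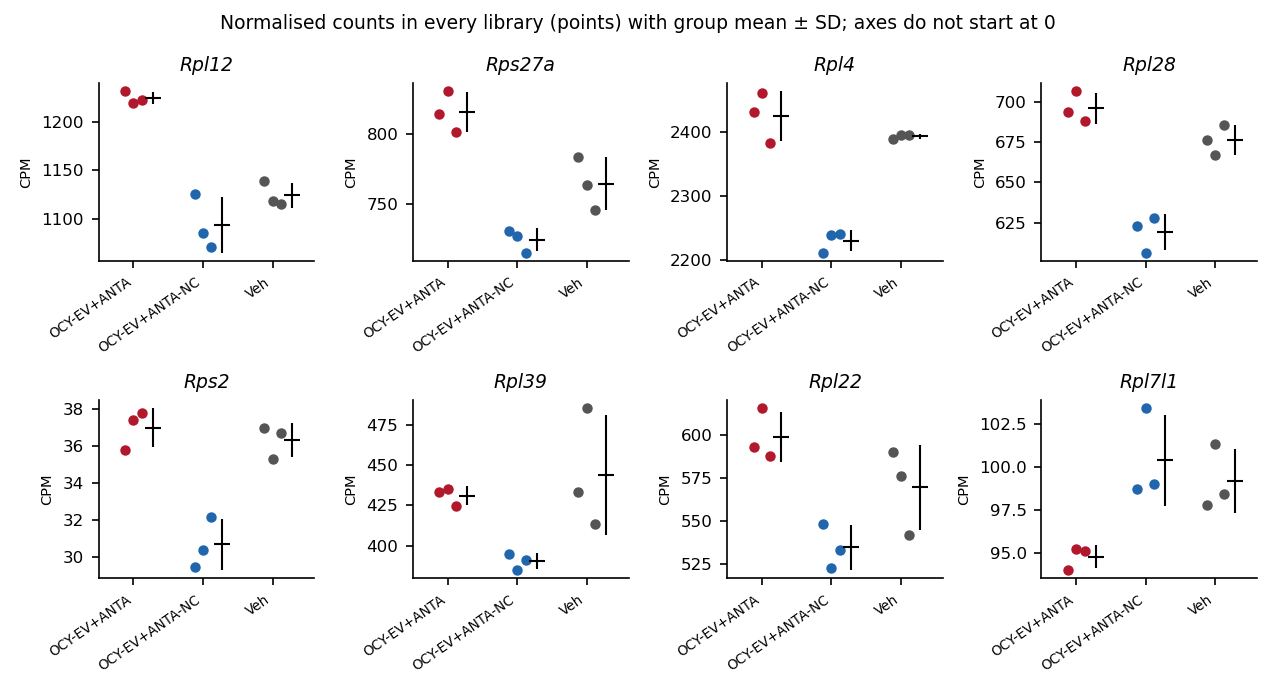
CPM of 8 members in every library (points) with the group mean and SD (black bar); the axes do not start at 0. Rpl12 and Rps27a are higher in OCY-EV+ANTA than in all other libraries, Rpl4, Rpl28 and Rps2 are lower in OCY-EV+ANTA-NC libraries than in the rest, Veh library 2 stands high for Rpl39, and Rpl7l1 is lower in OCY-EV+ANTA libraries.

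The 3 stalk proteins bind the elongation factors and form a complex of Rplp0 with Rplp1 and Rplp2. In OCY-EV+ANTA, OCY-EV+ANTA-NC and Veh cells, Rplp0 averaged 2756 ± 61.1, 2553 ± 71.0 and 2713 ± 22.6 CPM (SD, n = 3 each), Rplp1 721 ± 20, 657 ± 4.53 and 687 ± 21.2 CPM, and Rplp2 ran from 246.6 to 262.1, 222.6 to 238.3 and 244.6 to 256.7 CPM. All 3 genes were lowest in OCY-EV+ANTA-NC cells. Against Veh, their OCY-EV+ANTA log2 fold changes were 0.02 ± 0.025, 0.07 ± 0.030 and 0.03 ± 0.038, with adjusted p of 0.662, 0.175 and 0.710 in edgeR's test.

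Several members act beside the core of the ribosome. Rpl5, Rpl11 and Rpl23 can bind the p53 ligase MDM2, and Rpl5 and Rpl11 do so together with 5S ribosomal RNA. In OCY-EV+ANTA, OCY-EV+ANTA-NC and Veh cells, Rpl5 averaged 1577 ± 14.6, 1481 ± 18.9 and 1547 ± 39.5 CPM, Rpl11 523 ± 14.0, 476 ± 4.40 and 501 ± 9.52 CPM, and Rpl23 1133 ± 18.9, 1091 ± 23.1 and 1116 ± 18.3 CPM (SD, n = 3 each). Rps6, the substrate of the S6 kinases, averaged 1261 ± 22, 1165 ± 35.7 and 1228 ± 23.3 CPM. Rps19, the gene most often mutated in Diamond-Blackfan anaemia in humans, averaged 538 ± 12, 499.5 ± 2.95 and 522 ± 13.7 CPM. None of these 5 passed the threshold between OCY-EV+ANTA and Veh cells in edgeR's test (log2 fold changes 0.02 to 0.06, adjusted p of 0.241 to 0.679).

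Rps7, another MDM2-binding protein, and Rps3, at the messenger RNA entry, had OCY-EV+ANTA values of 595 ± 19.1 and 1887 ± 69.1 CPM, OCY-EV+ANTA-NC values of 531 ± 3.25 and 1717 ± 43.1 CPM, and Veh values of 567 ± 11.0 and 1823 ± 35.6 CPM. Rps14, lost in human 5q- syndrome, averaged 1787 ± 60, 1644 ± 59.9 and 1752 ± 19.9 CPM, Rps25, needed for some internal ribosome entry sites, 582 ± 16.8, 535 ± 12.7 and 562 ± 16.8 CPM, and Rpl10, among the last proteins to join the 60S subunit, 1038 ± 29.5, 989 ± 27.5 and 988 ± 21.6 CPM. Rpl10 therefore had its OCY-EV+ANTA-NC mean at the Veh level, unlike the rest of this set. Rps26 and Rps3a1 had close means in the 3 groups: Rps26 averaged 805 ± 10.6, 793 ± 20.5 and 818 ± 17 CPM, and Rps3a1 1712 ± 39.0, 1673 ± 31.6 and 1683 ± 34.2 CPM. The most abundant member per length was thus among those with the smallest differences, -0.01 ± 0.026 in OCY-EV+ANTA-NC against Veh cells and 0.03 ± 0.026 in OCY-EV+ANTA against OCY-EV+ANTA-NC cells on the log2 scale.

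Paralog pairs are given side by side. Rpl22 averaged 599 ± 14.6, 535 ± 13.1 and 570 ± 24.9 CPM and its paralog Rpl22l1 24.3 ± 1.30, 23.2 ± 0.486 and 24.3 ± 4.08 CPM in OCY-EV+ANTA, OCY-EV+ANTA-NC and Veh cells. Rpl7 averaged 1885 ± 71.2, 1840.0 ± 27.6 and 1867 ± 29.8 CPM, and Rpl7l1 had the values given above. Rps27 averaged 241 ± 5.11, 224.5 ± 5.21 and 247 ± 15.4 CPM and the p53-induced paralog Rps27l 96.8 ± 6.45, 93.7 ± 3.96 and 101 ± 2.91 CPM. Rpl3 averaged 1173 ± 45.2, 1064 ± 4.08 and 1130 ± 18.8 CPM, while its paralog Rpl3l had at most 1.72 CPM in a library. Rps4x, the X-linked copy of a 40S gene, averaged 1582 ± 14, 1492 ± 47.6 and 1541 ± 28.4 CPM, with all OCY-EV+ANTA libraries above all Veh libraries. Whether partners differed from each other in response was not tested. The start windows of Rps27 and Rps27l shown above both hold a run of 9 C or T letters. Rpl36a averaged 368 ± 11.4, 351.5 ± 10.8 and 380 ± 9.30 CPM, with 14.5% of its stretches its own.

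Small nucleolar RNA (snoRNA) genes lay in introns of 29 tested members (36.2%, against 1.89% of all tested genes), 55 snoRNA genes in all. These hosts had median log2 fold changes of 0.03, -0.08 and 0.12 in OCY-EV+ANTA against Veh, OCY-EV+ANTA-NC against Veh and OCY-EV+ANTA against OCY-EV+ANTA-NC cells, and the 51 other members 0.03, -0.08 and 0.11. The 65 members with a mean of at least 1000 counts ranged from -0.12 to 0.12 in OCY-EV+ANTA against Veh cells, while the 15 with fewer ranged from -0.19 to 0.55. Coding length had Spearman correlations of 0.29 with the OCY-EV+ANTA against Veh values and 0.30 with the OCY-EV+ANTA-NC against Veh values (80 genes, which share the same 9 libraries). With the OCY-EV+ANTA against OCY-EV+ANTA-NC values, a comparison without Veh libraries, it was -0.01. The 27 members with a coding length under 400 bases had a median of 0.00 in OCY-EV+ANTA against Veh cells, with 14 above 0, and the 53 longer ones a median of 0.03, with 49 above 0. In OCY-EV+ANTA against OCY-EV+ANTA-NC cells both sets had a median of 0.11.

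Veh library 2, the one with the highest total count, stood apart for some members. For 18 members it exceeded the mean of the other Veh libraries by at least 0.15 on the log2 scale, and for 2 it lay that far below. Rps29 had 113.2, 150 and 107.4 CPM in Veh libraries 1 to 3, Rps28 139.6, 183.4 and 141.8 CPM, Rpl19 178.6, 229.8 and 166.8 CPM, and Rpl23a 9.66, 21.0 and 7.20 CPM. The 18 members had a median coding length of 359.5 bases, against 501 bases for the other 62, and 11 of them stood under 100 FPKM. Without Veh library 2 the members' median in OCY-EV+ANTA against Veh cells was 0.05 and in OCY-EV+ANTA-NC against Veh cells -0.05. In OCY-EV+ANTA-NC against Veh cells 0 members and 44 of all tested genes then passed the threshold, against 8 and 118 with it. Leaving out OCY-EV+ANTA-NC library 2 or 3 instead also gave 0 members (73 and 53 genes). The part of Veh library 2 in the values by coding length was not tested.

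GC content moved with the OCY-EV+ANTA-NC group. Over all tested genes, the Spearman correlation of GC content with a gene's deviation from its mean was 0.08, 0.11 and 0.10 in the OCY-EV+ANTA libraries, -0.27, -0.18 and -0.10 in the OCY-EV+ANTA-NC libraries and -0.01, 0.10 and 0.23 in the Veh libraries. In the fifth of tested genes with the highest GC content, the median log2 fold change in OCY-EV+ANTA-NC against Veh cells was -0.045 over all genes and -0.091 over 17 members, and in the fifth with the lowest it was 0.047 over all genes and -0.078 over 7 members. The members were chosen on this comparison, and nothing is read from their distance to all genes. After a spline on GC content and gene length was taken out of each library, 6, 4 and 45 members passed the threshold in OCY-EV+ANTA against Veh, OCY-EV+ANTA-NC against Veh and OCY-EV+ANTA against OCY-EV+ANTA-NC cells, against 2, 8 and 45 without that step. Over all genes the counts were 833, 54 and 1578 after it, against 754, 118 and 1698 without it. The members' median in OCY-EV+ANTA-NC against Veh cells was -0.061 after it, against -0.077 without it.

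A list of 19 other genes, most of them of the translation machinery, whose messenger RNAs are known from other work to carry a pyrimidine tract, gave median log2 fold changes of 0.04, -0.06 and 0.12 in the 3 comparisons. Of 13 with a promoter entry, 6 (46.2%) held a run of at least 8 C or T letters near the annotated start and 0 held CTTTCC in that window. In OCY-EV+ANTA against Veh cells 5 rose and 0 fell, in OCY-EV+ANTA-NC against Veh cells 0 rose and 3 fell, and in OCY-EV+ANTA against OCY-EV+ANTA-NC cells 11 rose and 0 fell (edgeR, adjusted over all genes). The poly(A) binding protein gene Pabpc1 averaged 2261 ± 51.7, 1839.8 ± 7.55 and 1949 ± 68.2 CPM in OCY-EV+ANTA, OCY-EV+ANTA-NC and Veh cells, and rose in OCY-EV+ANTA against Veh cells by 0.21 ± 0.027 on the log2 scale (adjusted p = 4.08e-05). The elongation factor gene Eef2 averaged 5577 ± 194, 4908 ± 47.3 and 5320 ± 77.7 CPM, and fell in OCY-EV+ANTA-NC against Veh cells by 0.12 ± 0.025 (adjusted p = 0.0235). The nucleolar chaperone gene Npm1 and Hnrnpa1 rose in OCY-EV+ANTA against Veh cells by 0.18 ± 0.026 and 0.16 ± 0.025 (adjusted p of 0.000322 and 0.000513), while their OCY-EV+ANTA-NC means lay above the Veh means.

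Rpsa, Rack1 and Fau encode ribosomal components whose symbols the rule misses, and all 3 were lowest in OCY-EV+ANTA-NC cells. Rpsa averaged 2203 ± 59.0, 2063 ± 45.8 and 2146 ± 16.4 CPM in OCY-EV+ANTA, OCY-EV+ANTA-NC and Veh cells, Rack1 1838 ± 64.0, 1692 ± 33.4 and 1803 ± 5.17 CPM, and Fau 605 ± 12.8, 559.9 ± 13.1 and 601 ± 2.83 CPM. All 3 rose in OCY-EV+ANTA against OCY-EV+ANTA-NC cells (log2 fold changes 0.09 to 0.12, edgeR adjusted p of 0.00441 to 0.0154), and none passed against Veh. Of the 10 elongation and release factors, which share 5 genes with the list of 19, 6 rose and 1 fell in OCY-EV+ANTA against OCY-EV+ANTA-NC cells.

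Factors that assemble ribosomes had medians below 0 in both comparisons of OCY-EV+ANTA cells. Of 53 such genes, 1 rose and 8 fell in OCY-EV+ANTA against Veh cells (median -0.10), and 1 rose and 15 fell in OCY-EV+ANTA against OCY-EV+ANTA-NC cells (median -0.13). In OCY-EV+ANTA-NC against Veh cells their median was 0.01. The box C/D core proteins Nop56 and Nop58 averaged 37.7 ± 3.07 and 45.5 ± 4.70 CPM in OCY-EV+ANTA cells, 48.3 ± 3.17 and 59.4 ± 2.30 CPM in OCY-EV+ANTA-NC cells and 45.4 ± 0.749 and 54.4 ± 1.11 CPM in Veh cells. Against Veh they fell by 0.27 ± 0.062 and 0.26 ± 0.061 on the log2 scale (edgeR adjusted p of 0.0118 and 0.0138). Nolc1 and Nop16 fell by 0.24 ± 0.052 and 0.27 ± 0.066 (adjusted p of 0.00787 and 0.0159). Among RNA polymerase I genes, which make the ribosomal RNA precursor, 1 of 15 was called in OCY-EV+ANTA against Veh cells, Cd3eap, which fell by 0.36 ± 0.087 (adjusted p = 0.0169). Of the assembly factors with a promoter entry, 34.0% held a run of C and T letters near the start, a share close to the 36.7% of all tested genes.

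**Figure D5:**
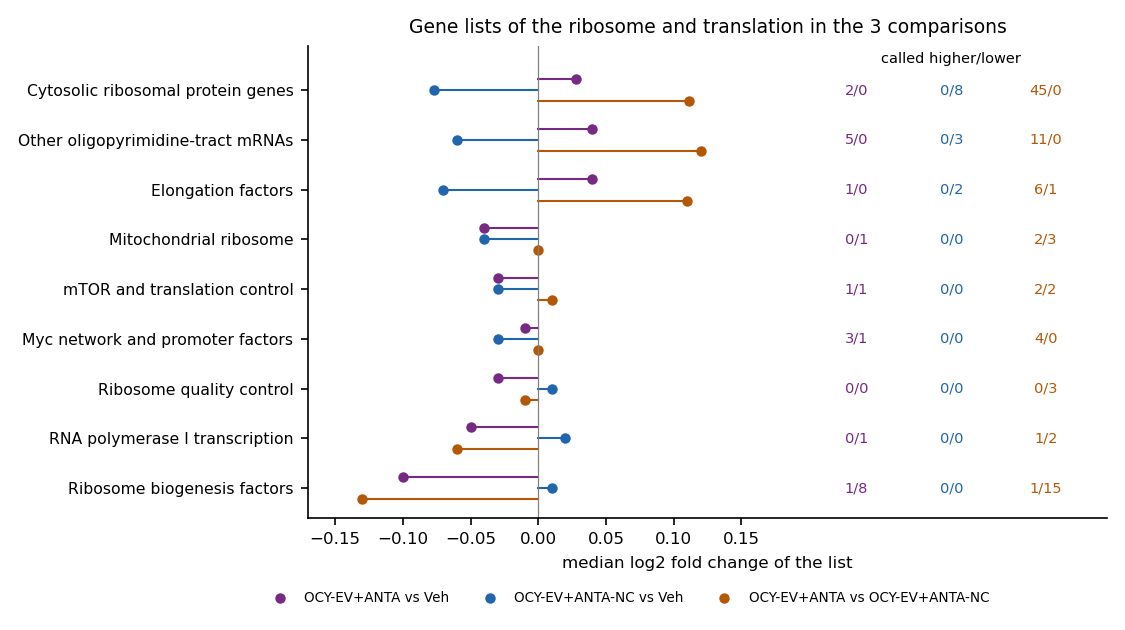
Median log2 fold change of each gene list (points) in the 3 comparisons, with the number of genes called higher and lower at the right. Cytosolic ribosomal protein genes and the genes listed as other pyrimidine-tract mRNAs lie at 0.03 and 0.04, -0.08 and -0.06, and 0.11 and 0.12, while ribosome biogenesis factors lie at -0.10, 0.01 and -0.13.

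The proteins of the mitochondrial ribosome, encoded by nuclear genes without a part in cytosolic translation, had medians of -0.04, -0.04 and 0.00 over 77 tested genes in the same comparisons. In OCY-EV+ANTA against OCY-EV+ANTA-NC cells 2 rose and 3 fell. Among 27 genes of the mTOR pathway and translation control, the translation repressor Pdcd4 rose by 0.20 ± 0.047 and the mTOR inhibitor Deptor fell by 0.18 ± 0.053 in OCY-EV+ANTA against Veh cells (edgeR adjusted p of 0.0137 and 0.0468). Among 15 Myc network and promoter factors, Sp1, Mnt and Mxi1 rose in that comparison by 0.19 ± 0.037, 0.21 ± 0.053 and 0.15 ± 0.040 (adjusted p of 0.00338, 0.0233 and 0.0282) and Mlx fell by 0.28 ± 0.071 (adjusted p = 0.0197). Of 16 tested ribosome quality control genes none was called against Veh, and 3 fell in OCY-EV+ANTA against OCY-EV+ANTA-NC cells. Whether these lists differ from each other was not tested.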

How the data were processed

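For each library the authors deposited a table of counts per gene and one of FPKM, which divides the count by gene length and library total. Per the submitters' processing notes, HTSeq and mm10 were used; no aligner, annotation or strand setting was given in the sources used here. Total RNA of 9 libraries was analysed. Deposited counts were tested with edgeR 4.0.16 (quasi-likelihood, TMM scaling, all 9 libraries, no covariate) on 11562 genes kept by filterByExpr (minimum count 10, minimum total 15), adjusted by Benjamini-Hochberg, with calls at 0.05. Scripts were tested on simulated data. Alternatives used DESeq2 1.42.0, limma 3.58.1, other scalings, filters and libraries. Identifiers were matched to GENCODE M21 (21851 of 21959). Own stretches are 50-base stretches of annotated transcripts. Named members were the 5 highest and 5 lowest fold changes per comparison, the 6 highest and 5 lowest FPKM, paralogs, stalk and signalling members; others (the called members, Rpl9, Rpl27, members high in Veh library 2) were named after their values were seen. From each other list, called genes with the smallest adjusted p were named. Members and lists were chosen with earlier results of these data known. Same-numbered libraries of different groups deviated together weakly (correlations of 0.02 to 0.23, 4 of 9 over 0.1). For differently numbered ones the correlations were -0.14 to 0.07 (0 of 18 over 0.1). The main tests did not treat numbers as pairs, and counts with the number as a block, which were higher, are given below. The labels differ on whether vesicles were recovered by ultracentrifugation or ultrafiltration. Some single genes are not reported here; they stay in all counts, sums and medians.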

Additional observations from a re-analysis of the deposited data

How the results depend on the processing

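The members' median log2 fold change kept its sign in all alternatives run: without 1 library it was 0.019 to 0.052 in OCY-EV+ANTA against Veh cells, -0.089 to -0.054 in OCY-EV+ANTA-NC against Veh cells and 0.099 to 0.122 in OCY-EV+ANTA against OCY-EV+ANTA-NC cells. In OCY-EV+ANTA against OCY-EV+ANTA-NC cells it was 0.08 with library size alone and 0.081 with limma on log2(FPKM + 1) or log2(FPKM + 0.1).

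Counts of called genes depended more on the setting. In OCY-EV+ANTA against Veh cells (2 members, 754 genes), 1 member was called with library size alone (781 genes) and with only the 2 groups fitted (768 genes). Either limma setting also called 1 member (532 genes). With the GC content and length trend removed, 6 were called (833 genes). Without 1 library, 1 to 3 members and 322 to 872 genes were called. The gene count was 361 without OCY-EV+ANTA library 2, 459 without OCY-EV+ANTA library 3, 322 without Veh library 2 and 422 without Veh library 3. In OCY-EV+ANTA-NC against Veh cells (8 members, 118 genes), 0 members were called with library size alone (163 genes) and with limma (48 and 49 genes). With no filter 18 were called (335 genes), and with the GC content and length trend removed 4 (54 genes). Without 1 library, 0 to 9 members and 43 to 184 genes were called. The member count was 0 without OCY-EV+ANTA-NC library 2, OCY-EV+ANTA-NC library 3 or Veh library 2. It was 1 without Veh library 1, 2 without Veh library 3 and 4 without OCY-EV+ANTA-NC library 1. For OCY-EV+ANTA-NC against Veh cells DESeq2 called 10 members and 184 genes. With only the 2 groups fitted, 8 members and 180 genes were called. In OCY-EV+ANTA against OCY-EV+ANTA-NC cells (45 members, 1698 genes), 29 members were called with library size alone (1683 genes). The limma settings called 17 and 18 members, among them Rpl7l1, lower (1273 and 1279 genes). Without 1 library, 28 to 46 members and 1005 to 1635 genes were called. The member count was 28 without OCY-EV+ANTA library 2 and 29 without OCY-EV+ANTA-NC library 3. Counting only the 8 members with at least 90% of stretches of their own, a setting chosen after seeing the data, gave 0, 0 and 5. With library size alone, calls over all genes split into 312 higher and 469 lower (354 and 400 with TMM), 157 and 6 (94 and 24), and 530 and 1153 (878 and 820), and limma on log2(FPKM + 1) gave 392 and 881 in OCY-EV+ANTA against OCY-EV+ANTA-NC cells. The cause of these changes was not tested.

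With the replicate number as a block, 6, 26 and 52 members were called (1446, 522 and 2427 genes). The order is OCY-EV+ANTA against Veh, OCY-EV+ANTA-NC against Veh and OCY-EV+ANTA against OCY-EV+ANTA-NC cells. With the block, and with the GC content and length trend removed as well, 10, 16 and 52 were called (1463, 325 and 2238 genes). Of 18 pairings of a library with another group, 14 correlated best with the library of the same number.

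The members' share of counts in OCY-EV+ANTA, OCY-EV+ANTA-NC and Veh cells was 5.69, 5.41 and 5.60% without mitochondrial transcripts, 4.72, 4.48 and 4.64% without members that have a listed paralog, and 11.29, 10.77 and 11.07% as a share of summed FPKM. Of single named members, Rps27a lost its call in 11 settings and Rpl9 and Rpl27 gained one in 6 and 3. Rpl10 gained one in 3 settings, all with the block or the trend removed, Rpl36 with the block, Rpl7a with the trend removed and with both, Rpl22, Rpl32, Rplp1 and Rps7 with both, Rpl35a without OCY-EV+ANTA library 3 and Rpl23a without Veh library 2. The widest errors were among the 15 members under 1000 counts, but the 2 sets overlapped. In OCY-EV+ANTA against Veh cells the SE was 0.055 for Rps2 and 0.072 for Rps27rt, both under 1000 counts. Rps29, with more than 1000 counts, had an SE of 0.085. Differences of a few percent were not detectable in the members under 1000 counts at this depth.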
